A study of Mus musculus with 12 samples.

Results

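The G1 step of the cell cycle was described through 10 genes: the D cyclins Ccnd1, Ccnd2 and Ccnd3, their kinases Cdk4 and Cdk6, the inhibitors Cdkn1b, Cdkn1c, Cdkn2b and Cdkn2c, and Rb1. The genes were chosen by name, with earlier results of these data known, and all 10 of them were among the 19938 genes measured. A gene was represented by the array row that the platform annotation gives to it alone, and by the brightest such row where there were several. Liver transcripts had been read on 1 Affymetrix array per mouse in 12 mice, of which 6 had received adenovirus carrying GFP as the control and 6 adenovirus carrying ChREBP, the product of Mlxipl and a transcription factor that answers to glucose. All 12 were male C57BL/6J mice labelled as 8 weeks old, injected through the tail vein and studied fed, 3 weeks after the injection. Both groups therefore carried an adenovirus, and no uninjected liver was compared. The sources used here do not give the promoter or the isoform in the ChREBP virus.

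A cell enters the division cycle when D cyclins, which are made in response to growth factors, bind Cdk4 or Cdk6 and phosphorylate the retinoblastoma protein, the product of Rb1. Unphosphorylated retinoblastoma protein holds back the E2F transcription factors, which drive the genes of S phase. Inhibitors of the INK4 family (here Cdkn2b and Cdkn2c) bind Cdk4 and Cdk6, and those of the Cip/Kip family (here Cdkn1b and Cdkn1c) act mainly on the kinase of the next step, Cdk2. Adult hepatocytes are mostly at rest, and Ccnd1 is the D cyclin best known for its rise when they re-enter the cycle.

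ChREBP binds DNA with its partner Mlx at carbohydrate response elements, which are built from paired E-boxes related to CACGTG. The start regions of the 10 genes were therefore read for that sequence, over the 250 bases before each annotated start in RefSeq (GRCm38.p6). Windows were given for 6 of the 10 genes, 8 windows in all, and not for Ccnd1, Ccnd2, Cdkn1c or Rb1. CACGTG was searched on both strands, on which it reads the same, and GGGCGG, the GC box bound by Sp1 family factors, was searched on both strands too. The window of Cdk4 held CACGTG 4 times, beginning 172, 118, 98 and 11 bases before the start. Of all 32851 windows 6.02% held CACGTG at least once and 7 windows (0.0213%) held it 4 times or more. The window of Cdk6 held it once, and the other 6 windows of the group held none. The windows shown are those of both D cyclin kinases and that of the inhibitor gene Cdkn2c, whose transcript rose, with CACGTG and the GC box in capitals. They lie at chr10:127063285-127063534 (plus strand, Cdk4), chr5:3343643-3343892 (plus strand, Cdk6) and chr4:109666757-109667006 (minus strand, the upstream start of Cdkn2c).
Cdk4: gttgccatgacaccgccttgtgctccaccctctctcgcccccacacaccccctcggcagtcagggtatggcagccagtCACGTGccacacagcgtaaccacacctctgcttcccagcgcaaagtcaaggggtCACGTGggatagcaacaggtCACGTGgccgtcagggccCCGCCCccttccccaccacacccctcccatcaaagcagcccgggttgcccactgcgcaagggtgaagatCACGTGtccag
Cdk6: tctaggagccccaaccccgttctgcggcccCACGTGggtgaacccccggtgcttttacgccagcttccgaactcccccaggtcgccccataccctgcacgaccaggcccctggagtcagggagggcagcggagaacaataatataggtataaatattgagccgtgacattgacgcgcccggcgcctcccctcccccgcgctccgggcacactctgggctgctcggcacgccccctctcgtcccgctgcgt
Cdkn2c: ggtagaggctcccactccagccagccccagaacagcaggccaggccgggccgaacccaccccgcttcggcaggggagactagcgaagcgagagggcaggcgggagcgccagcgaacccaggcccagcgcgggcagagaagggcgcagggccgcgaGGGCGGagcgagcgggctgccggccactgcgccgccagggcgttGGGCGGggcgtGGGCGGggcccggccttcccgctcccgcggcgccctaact
The Cdkn2c window held 3 GC boxes and no CACGTG, and GC boxes stood in 32.7% of all windows. A pair of CACGTG with exactly 5 bases between the copies was found in 0 of the 32851 windows. Carbohydrate response elements tolerate mismatches, which this search did not allow. The E2F motifs TTTGGCGC, TTTCGCGC and TTTCCCGC, searched on both strands, were in 0 of the 8 windows and in 0.417%, 0.256% and 0.895% of all windows. Such matches describe letters and not binding.

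Mlxipl, the gene carried by the virus, had a mean ± SD over 6 arrays of 9.32 ± 0.23 under GFP and 10.89 ± 0.08 under ChREBP, without overlap (limma, adjusted p = 2.86e-08), and the exact two-sided permutation test gave p = 0.00216, the smallest that 924 assignments allow. Array medians lay between 5.96 and 6.05, and Alb, the hepatocyte albumin gene, averaged 13.12 in GFP and 13.05 in ChREBP livers on the log2 scale. Marker levels differed among the ChREBP arrays. The mean of 8 pancreatic acinar markers was 12.12 on ChREBP 4 and 11.91 on ChREBP 5, against 5.65 to 7.36 on the other ChREBP arrays and 5.73 to 5.90 on the GFP arrays. On ChREBP 5 the mean of 9 endothelial markers was 8.96 and on ChREBP 4 it was 8.00, against 8.32 to 8.48 on the GFP arrays. Results for Ccnd1, Ccnd2, Cdk4, Cdkn2b, Cdkn2c, Cdkn1c and Rb1 are therefore also given without ChREBP 4 and ChREBP 5.

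In ChREBP livers 3 of the 10 genes rose, 0 fell and 7 did not pass. The 3 were the cyclin gene Ccnd1, the INK4 inhibitor gene Cdkn2c and Rb1. The threshold was an adjusted p of 0.05 by limma, with Benjamini-Hochberg adjustment over all 19938 genes. By that rule 27% of all genes passed, 13.3% higher and 13.7% lower, so 3 of 10 was near the share in the whole table. The same 3 genes had no overlap between the groups, as had 15.2% of all genes, 8.33% with ChREBP above. A second rule asked for a change of 1.5-fold or more with an unadjusted p under 0.05. It took in 5.7% of genes (4.1% higher, 1.6% lower), and of the 10 it took in Ccnd1 and Cdkn2c but not Rb1. The difference was above 0 in 8 of the 10 genes, against 38.6% of all genes, and the median of the 10 was 0.17, against -0.04 for all genes. Of those 8 only Ccnd1, Cdkn2c and Rb1 passed, and Cdkn2b stood at 0.007, with a sign that turned under other settings. Differences are given as ChREBP minus GFP, in log2 units. Values of different genes come from different probes, so only their differences are set side by side, not their levels.

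**Figure D1:**
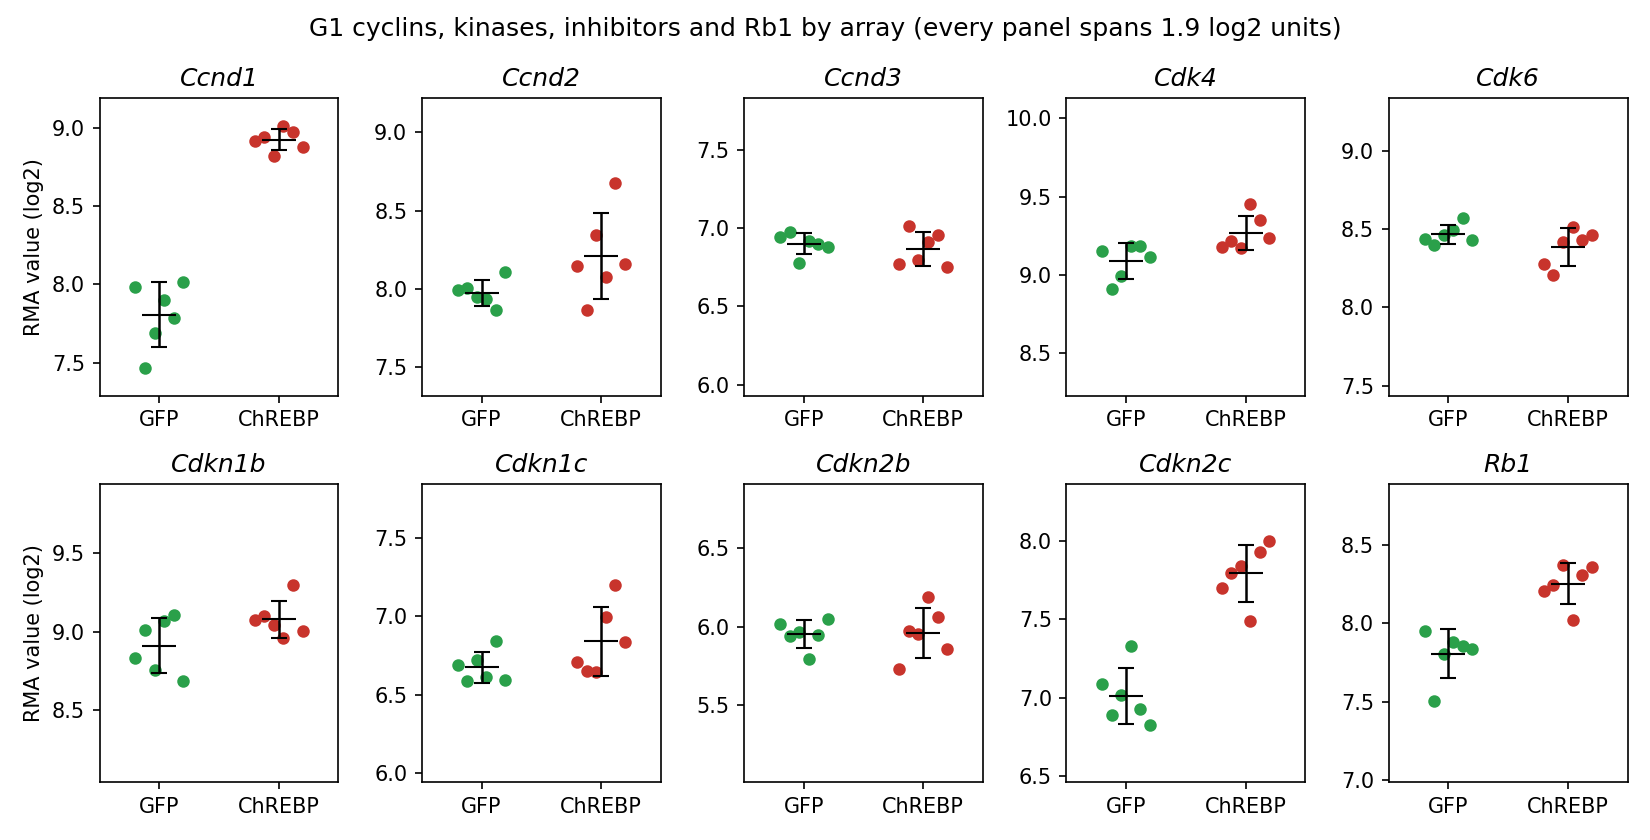
RMA values (log2) of the 10 genes, with 6 GFP arrays (green) and 6 ChREBP arrays (red) per gene in order of replicate number (mean and SD in black). Every panel spans the same range of 1.9 log2 units, and in Ccnd1, Cdkn2c and Rb1 all 6 ChREBP arrays lie above all 6 GFP arrays.

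Of the D cyclins Ccnd1 rose, and Ccnd2 and Ccnd3 did not pass. Ccnd1 ran from 7.47 to 8.01 in GFP livers (median 7.84) and from 8.82 to 9.01 in ChREBP livers (median 8.93), all on the log2 scale. Between the highest GFP array and the lowest ChREBP array there was a gap of 0.81. With n = 6 per group the mean ± SD was 7.81 ± 0.21 under GFP and 8.92 ± 0.07 under ChREBP, and the difference was 1.12 (SE 0.08, 95% interval 0.94 to 1.29), or 2.17-fold (limma, adjusted p = 3.19e-07). Among all genes the size of this difference stood at percentile 98.3. ChREBP 4 and ChREBP 5 held the highest values (9.01 and 8.97), and without both arrays the difference was 1.08 (adjusted p = 6.55e-06).

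Ccnd2, the D cyclin gene that lymphocytes and many other cells use, did not pass. It ran from 7.86 to 8.11 in GFP livers (median 7.97) and from 7.86 to 8.68 in ChREBP livers (median 8.15), and the groups overlapped, with 4 of 6 ChREBP arrays higher than any GFP array. The difference was 0.24 (SE 0.11, 95% interval 0.01 to 0.46, limma adjusted p = 0.116). The spread was wider in ChREBP livers (SD 0.28) than in GFP livers (SD 0.08), and single arrays moved the value. Without ChREBP 2, the lowest ChREBP array at 7.86, Ccnd2 passed (0.30, adjusted p = 0.0348). Without ChREBP 5, the highest at 8.68, it fell to 0.14 (adjusted p = 0.191). Ccnd2 did not pass without both ChREBP 4 and ChREBP 5 either.

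Ccnd3, the third D cyclin gene, ran from 6.78 to 6.98 in GFP livers (median 6.91) and from 6.75 to 7.01 in ChREBP livers (median 6.85). The groups overlapped throughout. The difference was -0.03 (SE 0.06, limma adjusted p = 0.688), with an interval from -0.15 to 0.09 that leaves room for changes of that size in either direction. Set against each other on the same arrays, Ccnd1 moved by 0.88 (SE 0.14) more than Ccnd2 and by 1.15 (SE 0.10) more than Ccnd3. In both pairs the within-array differences of the groups did not overlap. Ccnd2 moved by 0.27 (SE 0.13) more than Ccnd3, and there the groups overlapped. How often other gene pairs separate in this way was not measured.

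**Figure D2:**
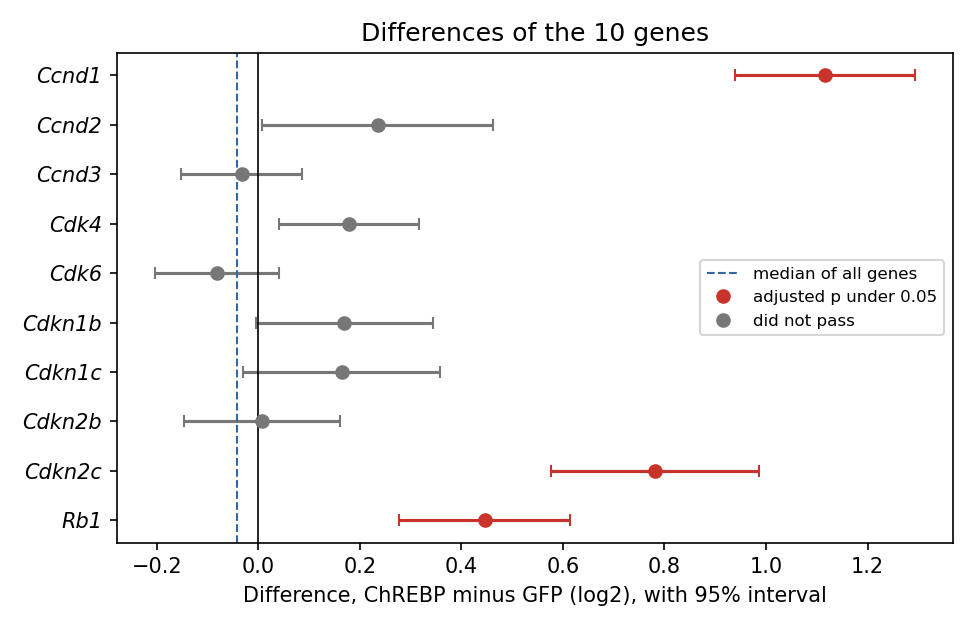
Difference between ChREBP and GFP livers (log2) for each of the 10 genes, with points for the estimate and bars for the unadjusted 95% interval of the limma fit, 6 arrays per group. Red marks Ccnd1 (1.12), Cdkn2c (0.78) and Rb1 (0.45), which passed, grey the 7 genes that did not, and the dashed line the median of all genes (-0.04).

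Neither kinase that D cyclins activate passed the test. Cdk4 ran from 8.91 to 9.18 in GFP livers (median 9.13) and from 9.17 to 9.45 in ChREBP livers (median 9.22). The groups overlapped by a narrow margin, since 4 of the 6 ChREBP arrays were higher than any GFP array, and the highest were ChREBP 4 (9.45) and ChREBP 5 (9.35). The difference of 0.18 (SE 0.06, 95% interval 0.04 to 0.32) just missed the threshold (limma, adjusted p = 0.0537). Without GFP 4 the adjusted p was 0.0498, and leaving out any other single array gave adjusted p from 0.0511 to 0.108. Without ChREBP 4 and ChREBP 5 the difference was 0.11 (adjusted p = 0.204). Those were the arrays with high acinar markers, whose part in the value was not tested.

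Cdk6 ran from 8.40 to 8.57 in GFP livers (median 8.45) and from 8.20 to 8.52 in ChREBP livers (median 8.43). ChREBP 1 and ChREBP 2 lay below every GFP array, and 0 ChREBP arrays lay above the highest. The difference was -0.08 (SE 0.06, 95% interval -0.20 to 0.04, limma adjusted p = 0.306). On the same arrays Cdk4 moved by 0.26 (SE 0.05) more than Cdk6, and this within-array difference ran from 0.51 to 0.71 in GFP livers and from 0.76 to 1.01 in ChREBP livers, without overlap. The share of other gene pairs without overlap was not measured, so this separation has no background to be set against.

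Of the INK4 inhibitors Cdkn2c rose and Cdkn2b did not pass. Cdkn2c, which encodes p18, ran from 6.83 to 7.33 in GFP livers (median 6.97) and from 7.49 to 8.00 in ChREBP livers (median 7.82). The groups were separate by 0.16, between GFP 4 (7.33) and ChREBP 4 (7.49). With n = 6 per group the mean ± SD was 7.01 ± 0.18 under GFP and 7.79 ± 0.18 under ChREBP, and the difference was 0.78 (SE 0.10, 95% interval 0.58 to 0.99), or 1.72-fold (limma, adjusted p = 3.21e-05). Without ChREBP 4 and ChREBP 5 it was 0.82 (adjusted p = 4.80e-05). Among the 4 ChREBP arrays then left, the acinar marker mean was still above every GFP array on ChREBP 2 (7.36) and ChREBP 6 (6.44), and its part in the value was not tested.

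Cdkn2b, which encodes p15 and is known as a gene induced by TGF beta, ran from 5.79 to 6.05 in GFP livers (median 5.96) and from 5.73 to 6.19 in ChREBP livers (median 5.96). These values lay around the median of the whole table (6.02), where the array may read little but background, and no detection calls were used. The difference was 0.01 (SE 0.07, 95% interval -0.15 to 0.16, limma adjusted p = 0.951), and its sign turned with median centring (-0.011), repeated quantile normalization (-0.0041) and array weights (-0.024), and without GFP 4 (-0.025), ChREBP 4 (-0.039) or ChREBP 5 (-0.014). Cdkn2b minus Cdkn2c on the same arrays shifted by -0.77 (SE 0.16), with some overlap between the groups.

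The Cip/Kip inhibitors did not pass on the rows used. Cdkn1b, which encodes p27, ran from 8.69 to 9.11 in GFP livers (median 8.92) and from 8.96 to 9.30 in ChREBP livers (median 9.06), and only ChREBP 5 was higher than every GFP array. The difference was 0.17 (SE 0.08, 95% interval 0.00 to 0.34, limma adjusted p = 0.138). Cdkn1b was the one gene of the 10 with a second row of its own on the array. That dimmer row ran from 7.72 to 7.89 in GFP livers and from 8.00 to 8.32 in ChREBP livers, without overlap, and in a fit over every row of the table it differed by 0.28 (SE 0.06, adjusted p = 0.00564). In that fit the brighter row differed by 0.17 (adjusted p = 0.190). The dimmer minus the brighter row shifted by 0.11 (SE 0.09) between the groups, so the 2 rows gave different calls without a clear difference in size. With the mean of both rows Cdkn1b passed (0.23, adjusted p = 0.0122).

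**Figure D3:**
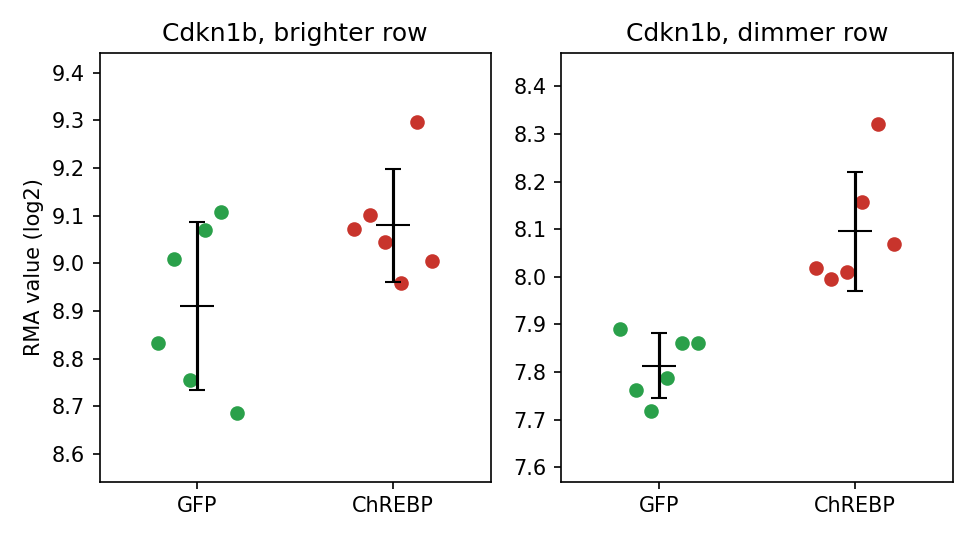
RMA values (log2) of the 2 array rows annotated to Cdkn1b alone, with 6 GFP arrays (green) and 6 ChREBP arrays (red), mean and SD in black; both panels span 0.9 log2 units. The groups overlap on the brighter row and not on the dimmer one.

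Cdkn1c, which encodes p57 and is an imprinted gene, ran from 6.59 to 6.84 in GFP livers (median 6.65) and from 6.64 to 7.20 in ChREBP livers (median 6.77). The difference was 0.16 (SE 0.09, 95% interval -0.03 to 0.36, limma adjusted p = 0.195). Its highest arrays were ChREBP 5 (7.20) and then ChREBP 4, and these alone lay above every GFP array. Without both the difference was 0.04 (adjusted p = 0.708). The changes of Cdkn1b and Cdkn1c differed by 0.01 (SE 0.11).

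Rb1, the target of the D cyclin kinases, ran from 7.50 to 7.95 in GFP livers (median 7.85) and from 8.02 to 8.37 in ChREBP livers (median 8.28). The groups were separate by 0.07, between GFP 1 (7.95) and ChREBP 4 (8.02). With n = 6 per group the mean ± SD was 7.81 ± 0.16 under GFP and 8.25 ± 0.13 under ChREBP, and the difference was 0.45 (SE 0.08, 95% interval 0.28 to 0.61), or 1.36-fold (limma, adjusted p = 0.000702). Without ChREBP 4 and ChREBP 5 it was 0.49 (adjusted p = 0.000806). Leaving out each array in turn gave 0.39 to 0.49, with the lowest value without GFP 2, the lowest GFP array.

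Liver is a mixture, and in whole tissue more cells of a type and more RNA per cell cannot be told apart. Among all genes 27% passed, 13.3% higher and 13.7% lower. The counts in the cholangiocyte, endothelial and stellate lists below were not clearly above that share. Of 9 measured T and NK cell markers 8 were higher in ChREBP livers, among them Cd3g (1.07), Cd3e (0.38) and Gzma (1.85), and 0 were lower. Their mean ran from 5.54 to 5.94 in GFP livers and from 6.18 to 6.81 in ChREBP livers. It was highest on ChREBP 5, where Ccnd2, Cdkn1b and Cdkn1c were highest too. The cholangiocyte and the B and plasma cell means were also highest on ChREBP 5 (6.86 and 5.65), against 5.79 to 6.34 and 5.17 to 5.42 on the GFP arrays. Of 7 cholangiocyte markers 2 were higher, Epcam (0.52) and Cftr (0.40), and of 6 B and plasma cell markers 0 passed in either direction. The GFP and ChREBP means of Epcam (5.39 and 5.92) and Cftr (3.73 and 4.14) lay below the median of the whole table (6.02). Of 9 endothelial markers 1 was higher, Lyve1 (0.57, adjusted p = 0.0134), and 0 were lower. On ChREBP 5 the endothelial genes Pecam1 (9.57) and Cdh5 (10.35) stood above all other arrays. The sinusoidal genes went both ways there, with Lyve1 (9.19) above and Stab2 (7.60) below all other arrays. Of 10 macrophage markers 5 were higher and 4 lower, with means from 8.50 to 8.84 in GFP and from 8.70 to 9.00 in ChREBP livers. The 5 were Mpeg1 (0.87), Cd5l (0.83), Cd68 (0.74), Adgre1 (0.63) and Csf1r (0.50). The largest difference was the fall of Timd4 (-1.59, limma adjusted p = 4.16e-08), without overlap between the groups, and Clec4f was lower too (-0.41, adjusted p = 0.00631). Neither of these lower calls was lost under another setting. Of the 4 lower ones, Vsig4 (-0.21) was lost under 11 of 24 other settings and Marco (-0.35) under 10, and leaving out GFP 1, 2 or 3 or ChREBP 1 or 5 ended both calls. Leaving out GFP 5 or ChREBP 4 or 6 ended that of Vsig4 alone, and GFP 4 or ChREBP 3 that of Marco alone. Of 9 stellate cell and fibroblast markers 2 were higher, Rgs5 (0.44) and Pdgfrb (0.25), the latter lost under 12 of 24 other settings, 7 of them with 1 array left out (GFP 1, 2, 3 or 5, or ChREBP 1, 5 or 6). Of 9 hepatocyte markers 8 were lower, with the largest difference in Tat (-0.63), and Alb (-0.07) did not pass. Among the 8, Ttr (-0.11, adjusted p = 0.0483) was lost under 16 settings, 11 of which left out 1 array (any but GFP 1), with adjusted p up to 0.149. Of 6 adipocyte markers 2 were higher, Cidec (2.05) and Fabp4 (1.37), and 1 lower, Plin1 (-0.22), which was lost under 11 settings. The rest of that list, Adipoq (-0.04), Lep (-0.12) and Retn (-0.09), did not pass. Adipoq was uneven in both groups, from 5.05 to 8.52 in GFP and from 5.01 to 9.02 in ChREBP livers, with GFP 4, GFP 6 (8.32) and ChREBP 6 highest. Of 3 erythroid markers 1 was lower, Alas2 (-1.43), and 0 were higher. The part of these cell types in the 10 genes was not tested.

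**Figure D4:**
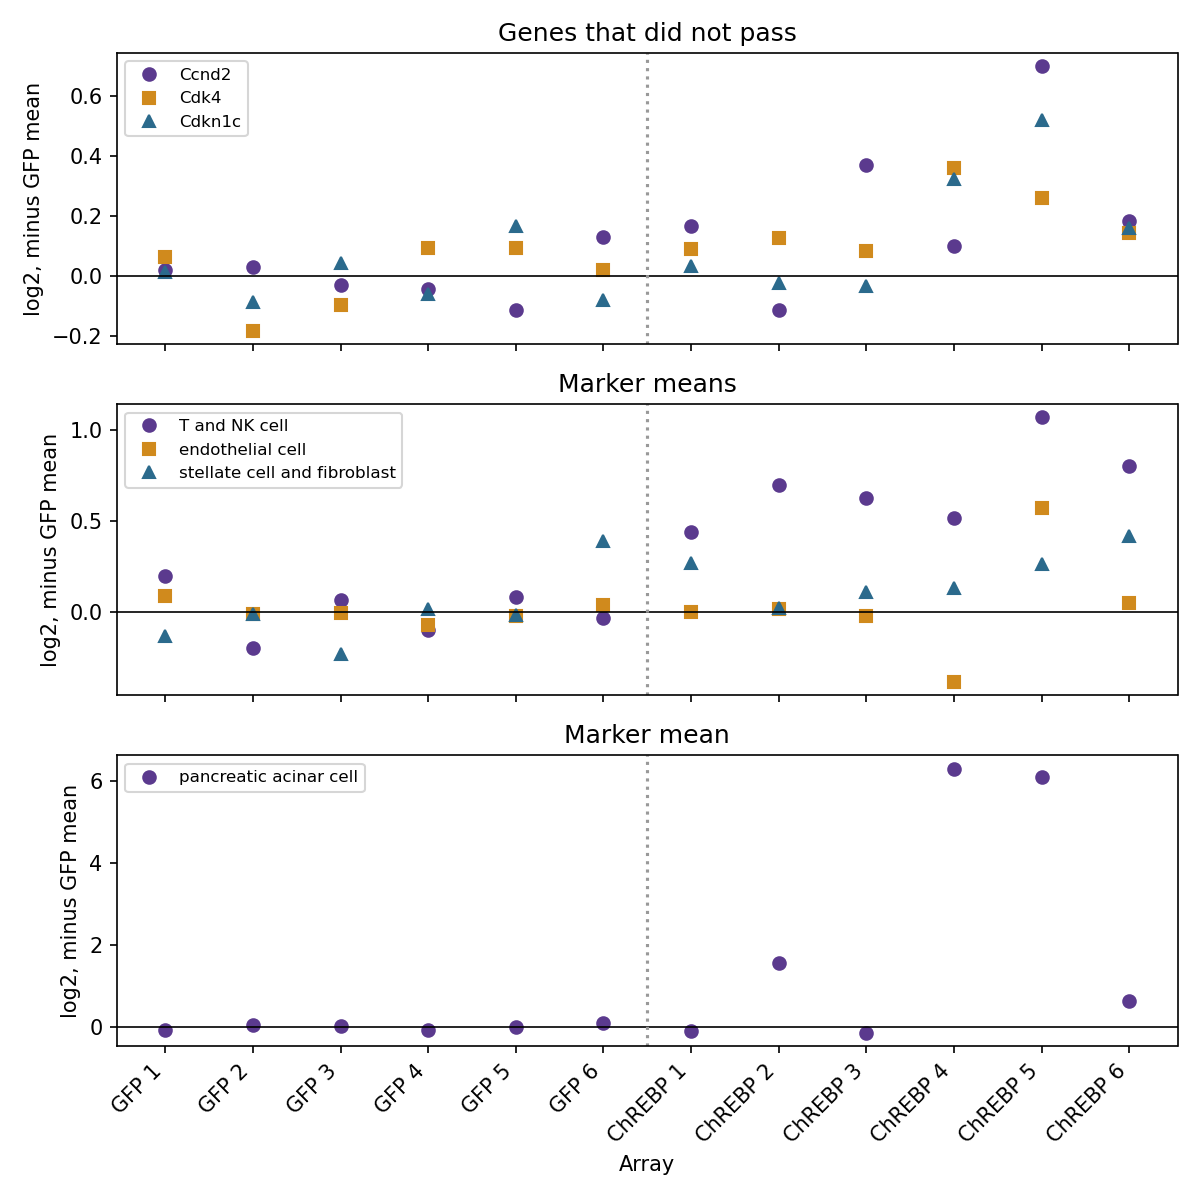
Values on each array minus the mean of the 6 GFP arrays (log2), for Ccnd2, Cdk4 and Cdkn1c (top), for the mean of T and NK cell, endothelial and stellate cell markers (middle) and for the mean of pancreatic acinar markers (bottom, wider axis). The dotted line parts GFP from ChREBP arrays. Ccnd2 and Cdkn1c are highest on ChREBP 5, where the T and NK cell and endothelial means are highest. Cdk4 is highest on ChREBP 4, where the acinar mean is highest. Of genes not drawn here, Cdkn1b is also highest on ChREBP 5, and Ccnd1 and Cdkn2b on ChREBP 4.

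The profiles most like those of the 2 genes with a change of at least 1.5-fold were found by root mean square distance between log2 values on the 12 arrays, each gene centred on its own mean. Nearest to Ccnd1 were Ano6 (distance 0.10, difference 1.03), Abhd2 (0.11, 1.18) and Rhoc (0.11, 0.99). Nearest to Cdkn2c were Hat1 (distance 0.085, difference 0.71), which encodes a histone acetyltransferase, Igsf6 (0.14, 0.90) and Elovl5 (0.14, 0.83), a fatty acid elongase gene. The group difference enters this distance, so near profiles have differences close to those of Ccnd1 (1.12) and Cdkn2c (0.78) by construction. Symbols beginning with a digit, Snor, LOC, Olfr or Vmn, or with Gm or Mir and a digit, were left out. So were symbols ending in Rik.

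The genes around the G1 step were taken as 8 lists, chosen with earlier results of these data known, and 97 of their 103 genes were measured. Of these 42 were higher, 9 lower and 46 did not pass, against 13.3% higher and 13.7% lower among all genes. In the next step, cyclin E and A with Cdk2, 5 of 9 genes were higher: the cyclin genes Ccna2 (1.45), Ccne2 (0.81) and Ccne1 (0.55), the phosphatase gene Cdc25a (0.28) and Cdk2 (0.26). Ccnh, the cyclin of the kinase that activates other cyclin-dependent kinases, was lower (-0.31). The median of this list was 0.26. The GFP means of Ccne1 (5.83) and Ccne2 (5.56) lay below the median of the whole table (6.02), where the array may read little but background. Their ChREBP means (6.37 for each) lay above it.

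Among the E2F factors, their DP partners and the relatives of Rb1, 2 of 12 genes were higher and 2 lower, and the median was 0.03. These counts were not clearly above the share of all genes that passed (27%). The pocket protein genes went different ways. Beside Rb1 (0.45), Rbl1, which encodes p107, was higher (0.64) and Rbl2, which encodes p130, was lower (-0.29). The DP genes were split too, with Tfdp1 higher (0.36) and Tfdp2 lower (-0.30). All 8 E2F genes did not pass, with differences from -0.55 for E2f8 (adjusted p = 0.127) to 0.14 for E2f3 (adjusted p = 0.272). E2f8 was split within the GFP group, high on GFP 1 (8.72), GFP 4 (8.82) and GFP 6 (8.59). It stood at 7.32 to 7.61 on the other GFP arrays and at 7.40 to 7.70 on the ChREBP arrays. The group means of E2f1, E2f2 and E2f5, from 5.72 to 5.98, lay below the median of the whole table (6.02), where the array may read little but background. So did the GFP mean of Rbl1 (5.83), but not its ChREBP mean (6.47). Of the other inhibitors and of the genes for p27 turnover 4 of 7 were higher (median 0.25): Cdkn3 (1.59), a phosphatase that acts on cyclin-dependent kinases, Cks1b (0.46) and Cks2 (0.41), small subunits that bind the kinases, and the INK4 gene Cdkn2d (0.25), which encodes p19. Skp2, the receptor that marks p27 for breakdown, did not pass (0.11, adjusted p = 0.283). Cdkn1a was not analysed here.

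Of 9 measured regulators of D cyclin synthesis and turnover 2 were higher, Myc (0.62) and the kinase gene Gsk3b (0.25), and 2 lower, Fbxo31 (-0.38) and Fbxo4 (-0.31), both genes for F-box proteins that have been linked to D cyclin breakdown (median 0.06). With so few genes, these counts were not clearly above the 27% of all genes that passed. Myc (adjusted p = 0.0284) was lost under 12 of 24 other settings, 7 of them with a single array left out (GFP 1, 3, 4 or 6, or ChREBP 2, 4 or 6), with adjusted p from 0.0527 to 0.0995 where lost. Of 12 mitogen and TGF beta genes 5 were higher (median 0.18): the receptor gene Tgfbr2 (0.80), Hgf (0.44), Tgfb1 (0.43), Tgfb2 (0.43) and Hbegf (0.28). Hbegf was lost under 7 settings, 5 of them with 1 array left out (GFP 1, 2 or 4, or ChREBP 1 or 5), with adjusted p from 0.0521 to 0.0786. The GFP means of Hbegf (5.96) and Tgfb2 (5.99) lay below the median of the whole table (6.02). Their ChREBP means (6.24 and 6.42) lay above it. The receptors of the growth factors EGF and HGF were lower. Egfr ran from 10.66 to 11.42 in GFP livers and from 9.03 to 10.20 in ChREBP livers, a difference of -1.50 (SE 0.20, adjusted p = 6.33e-05), and Met differed by -0.51 (adjusted p = 2.76e-05).

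Downstream of the G1 step, 12 of 17 S phase genes were higher and 0 lower, with a median of 0.37. Rrm2 (1.44) and Rrm1 (1.23), the subunits of ribonucleotide reductase, and the helicase gene Mcm6 (1.24) led. The licensing genes Cdc6 (0.02) and Cdt1 (0.02) did not pass. Their group means, from 5.19 to 5.74, lay below the median of the whole table (6.02), where the array may read little but background. Of 10 mitotic genes 9 were higher (median 1.26), with Top2a (1.99), Cdk1 (1.65), Ccnb2 (1.53), the proliferation marker Mki67 (1.48), Bub1 (1.40) and Plk1 (1.13), while Ccnf (-0.12) did not pass. The GFP means of Bub1 (4.85), Plk1 (5.36) and Mki67 (5.82) also lay below the median of the whole table. Their ChREBP means (6.24, 6.49 and 7.30) lay above it. In 21 cyclins and kinases that act outside the G1 step the median was 0.03. The 3 higher and 2 lower calls there were near the share of all genes that passed (27%). There Ccng1 (1.10), a p53 target, Cdk9 (0.19) and Cdk17 (0.19) were higher and Cdk5 (-0.22) and Cdk20 (-0.22) lower. Leaving out 1 array ended the call of Cdk17 in 3 cases (GFP 6, ChREBP 1 or ChREBP 3; adjusted p from 0.0522 to 0.0562), that of Cdk20 in 6 (GFP 1, 2 or 6, or ChREBP 3, 5 or 6; 0.0530 to 0.0614) and that of Cdk5 in 9 (every ChREBP array, GFP 1, GFP 4 or GFP 5; 0.0567 to 0.0945). Cdk9 was lost without ChREBP 4 and ChREBP 5 (0.15, adjusted p = 0.0793), with median centring (0.17, adjusted p = 0.0547) and with repeated quantile normalization (0.14, adjusted p = 0.0897). Of the 51 calls in the 8 lists, 45 held under all 24 other settings.

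**Figure D5:**
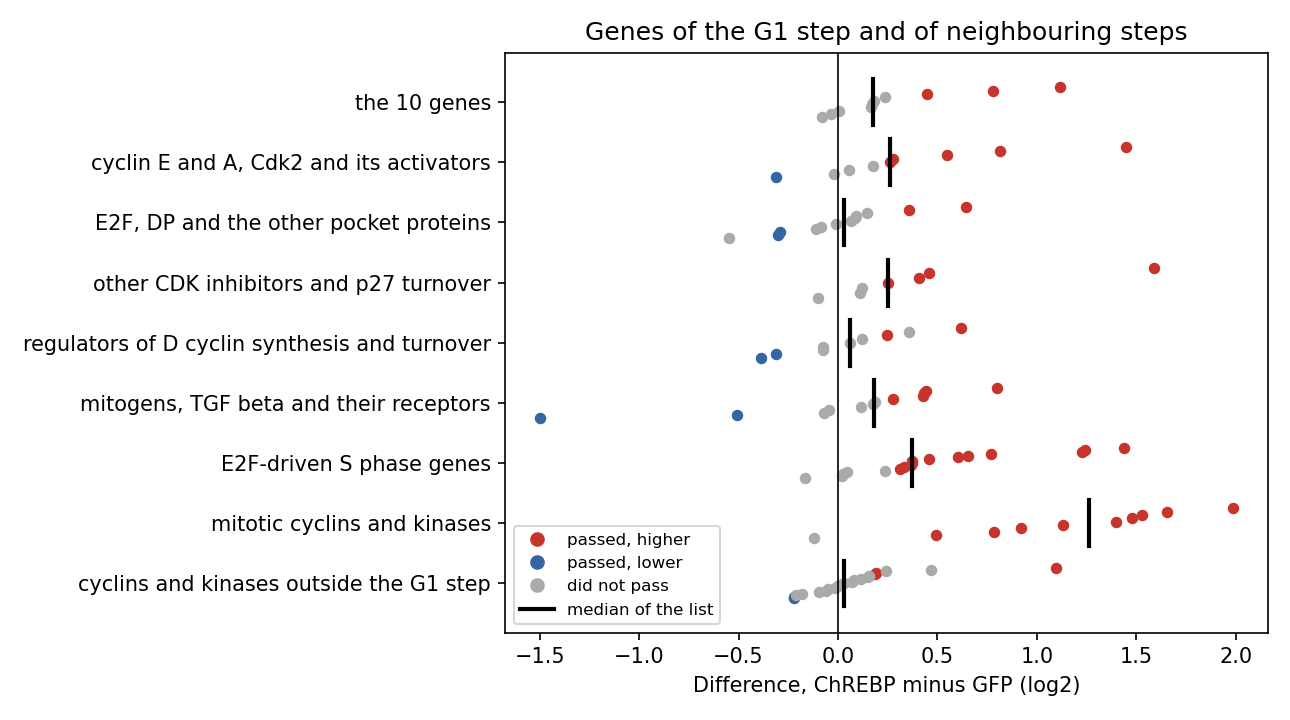
Difference between ChREBP and GFP livers (log2) for the 10 genes and for the measured genes of 8 neighbouring lists, with 1 point per gene and a black bar for each list's median. Red points passed as higher, blue points passed as lower and grey points did not pass; the mitotic list has the highest median (1.26), and the 10 genes have a median of 0.17.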

How the data were processed

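Total RNA of 12 livers, 6 per virus, was amplified, biotin-labelled and hybridised to 1 Affymetrix mouse gene array each. The log2 values deposited by the authors were used as they stand. The submitters' processing notes name RMA (background correction, quantile normalization, median polish) and Partek, without versions, and no genome build is given in the sources used here. Of 35556 rows 21789 carry 1 gene symbol, 1621 several and 12146 none. Symbols were updated through the Entrez ID, and the brightest row per gene gave 19938 genes. No dim gene was left out and no detection calls were used. Precision is set by there being 6 arrays a group.

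The groups were compared in R 4.3.3 by the moderated linear model of limma 3.58.1, without covariates, and the two-sided p-values were adjusted over all genes by the Benjamini-Hochberg method. The array methods of the study describe another vector and name an analysis of variance, which was run as an alternative. The members and lists were chosen with earlier results of these data known. The genes named were the 10 members, listed genes that passed with a difference of at least 1 (or the 2 with the smallest adjusted p), those needed to complete a count of 5 or fewer, the 3 nearest profiles and markers that moved with a member. E2f1, E2f2, E2f3, E2f5, E2f8, Skp2, Cdc6, Cdt1 and Ccnf, which did not pass, were named after their values were seen. So were Ttr and the named macrophage, adipocyte and erythroid markers. In a simulation of 6 against 6 arrays and 19938 genes, with 50 genes altered at each fold, 68% were called at 1.25-fold, 94% at 1.5-fold, 98% at 2-fold and 100% at 4-fold. Unchanged genes made up 4.76% of calls. Far fewer genes were altered in the simulation than the 27% that passed in the data. The adjustment is stricter when fewer genes change, so these shares do not give the detection rate in the data.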

Additional observations from a re-analysis of the deposited data

Results flagged for a closer look

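In 98 groups of 6 values, covering 39 genes and the means of 10 marker lists, 6 single arrays lay far from the rest of their group, and chance alone gives about 1 in 20. Among the 10 genes this was Rb1 on GFP 2, at 7.50 against 7.81 to 7.95 on the other GFP arrays, and without GFP 2 Rb1 still passed (0.39, adjusted p = 0.000619). Among the neighbouring genes Rbl1 stood low on ChREBP 4 (6.16, others 6.46 to 6.63), Cks1b stood low on GFP 4 (9.06, others 9.30 to 9.43) and Fbxo31 stood high on GFP 3 (8.19, others 7.81 to 7.88). The mean of the cholangiocyte markers was high on GFP 6 (6.34, others 5.79 to 5.92), and that of the erythroid markers on GFP 1 (6.93, others 6.77 to 6.83).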

How the results depend on the processing

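Ccnd1 (1.05 to 1.17), Cdkn2c (0.70 to 0.84) and Rb1 (0.39 to 0.49) passed under all 24 other settings, which were scaling, filter, row choice, moderation, weights, test, replicate block and left-out arrays, and Ccnd3, Cdk6, Cdkn1c and Cdkn2b passed under none. Between 3 and 4 of the 10 genes passed, the 4th being Cdk4, Ccnd2 or Cdkn1b. Cdk4 passed with the 25% dimmest genes left out (adjusted p = 0.0455), with trended and robust moderation (0.0492) and with the replicate block (0.0428), besides the case without GFP 4. Cdkn2b, which did not pass, turned sign with quantile normalization repeated (-0.0041), median centring (-0.011), array weights (-0.024) and without ChREBP 4 and ChREBP 5 (-0.076), and ran from -0.039 to 0.053 over the 12 settings that left out 1 array. By the rule of a 1.5-fold change with unadjusted p under 0.05, 1137 genes were called in place of 5375, and 22 of the 97 listed genes in place of 51. The 24 settings gave 4439 to 5844 genes (6200 of 35556 rows where every row was tested) and 48 to 53 listed genes. By the methods' analysis of variance 7633 genes had an unadjusted p under 0.05, Cdk4 among them, and 5068 after Benjamini-Hochberg adjustment.

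Replicate numbers are shared by the groups, but same-numbered arrays deviated together in 1 of 6 pairs (correlations from -0.06 to 0.25), so the numbers were not taken as pairs. With the replicate block 4439 genes passed, and Cdk4 was the one call among the 10 genes that changed. In simulation 68% of genes changed by the smallest fold tried were called with 6 arrays per group, so changes of that size can be missed. The simulation altered far fewer genes than passed in the data, so the share missed in the data was not measured by it.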

Other observations

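Cdk14, a cyclin-dependent kinase gene outside the G1 step that was singled out after its values were seen, stood at 7.17 on ChREBP 5, against 5.76 to 6.10 on the other ChREBP arrays and 5.42 to 5.77 on the GFP arrays. Its difference was 0.47 (SE 0.20, limma adjusted p = 0.0996).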
